A study of Mus musculus with 4 samples.

Results

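The genes described here encode the proteins of the cytosolic ribosome. They were taken by name from the deposited table: symbols of the form Rps or Rpl with a number, plus Rpsa, Rplp0, Rplp1 and Rplp2, without names marked -ps and without the Rps6k kinases. The rule took 84 of the 15713 genes, 35 with a small-subunit name (Rps, Rpsa) and 49 with a large-subunit name (Rpl, Rplp). In the GENCODE vM21 annotation of GRCm38, 80 of them are protein-coding and 4 (Rps4l, Rpl6l, Rps3a2 and Rps3a3) are annotated as pseudogenes.

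Hippocampal messenger RNA from C57BL/6 mice, an inbred laboratory strain, was sequenced at an age of 11 to 12 weeks. The control group, labelled untreated, had 2 libraries. The other group, labelled as developmentally exposed to ATO at 5000 ppb, also had 2 libraries, and the series title speaks of arsenic and of offspring. The labels give no sex, dam, route or duration, and do not say whether the libraries of a group came from separate animals, so the spread behind each p-value may be technical.

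The cytosolic ribosome is built from a small subunit, which reads the messenger RNA, and a large subunit, which joins amino acids. Each of its proteins is needed in about equal numbers, and their messenger RNAs typically begin with a run of pyrimidines (C and T in the gene), the 5' terminal oligopyrimidine or TOP motif, through which mTOR controls their translation. In neurons these messenger RNAs are also carried into axons and dendrites. Mammalian genomes hold many processed copies of ribosomal protein messenger RNAs, most of them pseudogenes, whose sequences are close to those of the parent genes.

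The libraries held 14832214 and 15078919 counts (control) and 17251032 and 16696546 counts (ATO). Markers of hippocampal neurons were present in each library, but not all at like levels. The 9 CA1 markers summed to 843 and 840.1 CPM (counts scaled to a common library size) in the controls and 589 and 774 CPM in ATO, and the 10 CA3 markers to 1953 to 2162 CPM in the 4 libraries. Over all genes, 451 passed as higher and 135 as lower in ATO (edgeR quasi-likelihood test, Benjamini-Hochberg adjusted p under 0.05 over all 15713 genes). Of the CA1 markers, 4 of 9 passed as lower (median log2 fold change -0.37), against 0.859% of all genes. Of 10 markers of GABAergic interneurons 1 passed as lower, with a median of -0.25. For 9 of these 10, both ATO libraries lay below both controls, against 23.4% of all genes. Markers of dentate granule neurons went the other way: of 12, 10 had a log2 fold change above 0 and 2 below it (median 0.29). Of these 12, 2 passed as higher, against 2.87% of all genes. Of 14 ependymal markers, 8 rose (median 1.17). Markers of the choroid plexus, the tissue inside the ventricles that secretes cerebrospinal fluid, set the groups apart: all 20 of 20 rose, and their sum was 172 and 242 CPM in the controls and 3408 and 4267 CPM in ATO. None of the 20 was at 0 in any library. The part of these marker shifts in the values of the ribosomal protein genes was not tested, and in whole tissue fewer cells of a type and less RNA per cell cannot be told apart.

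Ribosomal protein messenger RNA was slightly lower in both ATO libraries, and most of the genes were lower by small amounts that did not pass singly. Together the 84 genes took 0.880% and 0.913% of all counts in the control libraries, against 0.863% and 0.844% in the ATO libraries. Both ATO libraries thus lay below both controls. The group shares were 0.896% ± 0.0230 and 0.853% ± 0.0140 (SD, n = 2 each), a ratio of 0.952, and with 2 libraries against 2 a two-sided exact permutation test cannot give a p below 0.333. The median log2 fold change (ATO over control) was -0.075, a fall of 5.05% at the median, beside -0.0050 over all genes tested. Of the 84 genes, 64 had a log2 fold change below 0 (76.2%, against 51% of all genes) and 20 above 0. The values ran from -0.44 to 0.15, and no gene reached a 2-fold difference.

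One gene, Rps4l, passed as lower and 0 passed as higher, where 0.859% of all genes passed as lower and 2.87% as higher (3.73% in either direction). At an unadjusted p under 0.05, 14 of the 84 genes were lower (16.7%, against 7.55% of all genes) and 0 were higher (against 10.6%). Both ATO libraries lay below both controls for 40 genes (47.6%, against 23.4% of all genes) and above both for 7 (8.33%, against 24.8%). The other 37 overlapped. The 7 genes above both controls were Rps26, Rpl6, Rpl23a, Rpl23, Rpl35, Rps24 and Rps15a, named after their values were seen. DESeq2 called 0 of the 84 genes, against 316 of all genes. At an unadjusted p under 0.05 it had 11 of the 84 lower and 0 higher, and its share of all genes there is not given here.

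**Figure D1:**
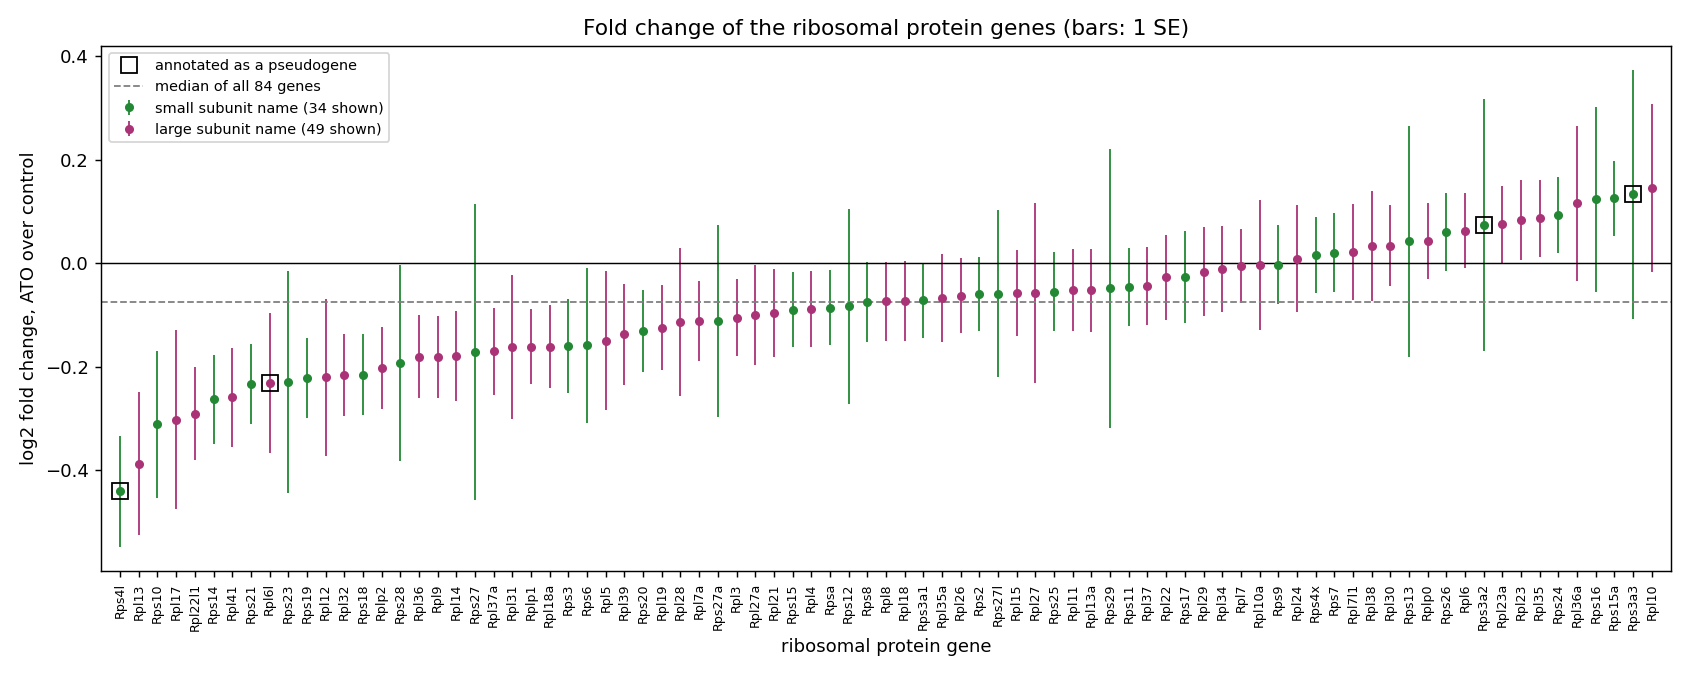
Log2 fold change (ATO over control, vertical axis) of 83 of the 84 ribosomal protein genes, ordered from lowest to highest, with bars of 1 SE, colours for the small- and large-subunit names, squares around the 4 annotated pseudogenes and a dashed line at the median of all 84, -0.075. Most points lie below 0, and the lowest, Rps4l at -0.44, is the gene that passed the test.

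The 35 small-subunit genes had a median log2 fold change of -0.075 with 26 below 0, and the 49 large-subunit genes a median of -0.074 with 38 below 0. After a correction of each gene for its length and GC content these medians were -0.037 and -0.062, and the difference between the subunits was not tested. Taking each gene relative to its control mean, the median over the 84 genes was -0.018 in control 1, 0.018 in control 2, -0.076 in ATO 1 and -0.093 in ATO 2 on the log2 CPM scale. The pooled SD of these library medians within groups was 0.020. Without ATO replicate 1 the median log2 fold change was -0.099, and without control replicate 2 it was -0.067.

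The genes differed far more from each other than between groups. Levels between genes were compared per length, as the deposited FPKM (fragments scaled to gene length and library size). The length implied by counts and FPKM was 384 bases for Rpl36 and 6285 for Rps15a. Their coding sequences have 318 and 393 bases. The range and order by FPKM thus also hold differences in this length, and the part of length was not tested. Among the 80 protein-coding genes the mean FPKM of the 4 libraries ranged 308-fold, with a median of 44.1 beside 4.98 for all genes, and 72 of the 80 were above that all-gene median. The highest was Rplp1, an acidic protein of the stalk that recruits elongation factors, with FPKM of 589 and 590 in the control libraries, against 547 and 512 in the ATO libraries. Rps15, a small-subunit protein near the decoding centre, followed at 503 and 524 in the control libraries, against 480 and 489 in the ATO libraries. In both, each ATO library was below each control, with log2 fold changes of -0.16 ± 0.07 (SE, adjusted p = 0.257) for Rplp1 and -0.09 ± 0.07 (adjusted p = 0.563) for Rps15. After the length and GC correction these were -0.0635 and 0.014, so the sign of Rps15 turned.

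Next came Rps3a1, a small-subunit protein, with FPKM of 257 and 265 in the control libraries, against 247 and 252 in the ATO libraries. Rpl4, whose loop lines the exit tunnel of the large subunit, had 250 and 240 in the control libraries, against 237 and 226 in the ATO libraries. Rpl36, a large-subunit protein, had 225 and 246 in the control libraries, against 206 and 211 in the ATO libraries. These 3 genes were again lower in each ATO library than in each control, by less than the test could call (adjusted p = 0.660, 0.581 and 0.251). Their log2 fold changes were -0.0721, -0.0885 and -0.18, and -0.0212, -0.0700 and -0.0621 after the length and GC correction.

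At the low end stood Rps13, at 1.70 and 1.87 FPKM in the controls and 1.81 and 1.89 in ATO. Rps27 had 2.77 and 2.85 in the control libraries, against 2.50 and 2.52 in the ATO libraries. Rps12 had 3.85 and 3.56 in the control libraries, against 3.40 and 3.63 in the ATO libraries. These encode core small-subunit proteins, and their FPKM lie below the median of all genes although each of these proteins is a fixed part of every ribosome. Their log2 fold changes were 0.04 ± 0.22, -0.17 ± 0.29 and -0.08 ± 0.19 (SE), so that differences of the size seen over the group were not detectable for them at this depth.

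**Figure D2:**
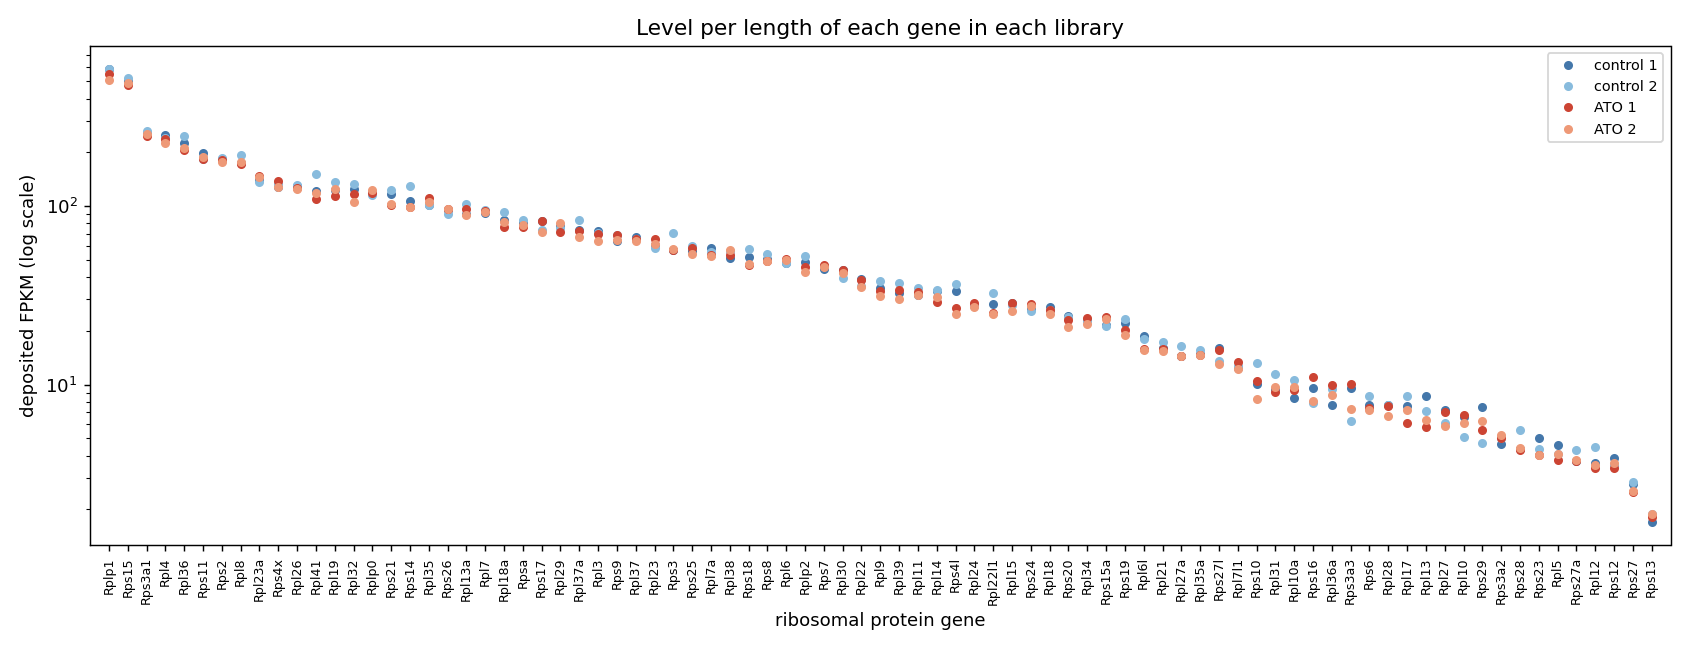
Deposited FPKM (vertical axis, log scale) of 83 ribosomal protein genes in each of the 4 libraries, ordered by the mean of the 4. The libraries of a gene lie close together, while genes span from Rplp1 at a mean of 560 down to Rps13 at 1.82.

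The low deposited levels went with how much of the coding sequence other genes share. Each coding sequence was cut into all its 50-base windows, and a window was called shared if it occurred exactly, on either strand, in an annotated transcript of another gene. The median coding gene had 91.5% of its windows shared. The 27 genes with 100% shared, among them Rps27, Rps12, Rps6, Rpl5, Rpl10 and Rpl13, had a median FPKM of 7.71 (2.66 to 143). The 41 genes with 50% to under 100% shared had a median of 55.1, and the 12 genes under 50% had 97.6 (12.6 to 499). Over the 80 coding genes, Spearman's rho between mean FPKM and the shared percentage was -0.53. It is a correlation across genes of the same libraries and is given as a description.

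How reads that match several genes were counted is not given in the sources used here, so the levels of genes with shared windows are uncertain. The fold changes did not follow the shared percentage (Spearman's rho -0.01 over the 84 genes, a description as above). The median log2 fold change was -0.11 for the 27 coding genes with 100% shared, -0.06 for the 41 between and -0.08 for the 12 under 50%. Fold changes were also nearly unrelated to mean FPKM (rho 0.04) and to coding length (rho 0.06). Exons of 12 of the 84 genes overlap exons of another gene of the table, in each of the 12 on the opposite strand. Whether strand was used in counting is not given, so reads of such pairs cannot be told apart.

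**Figure D3:**
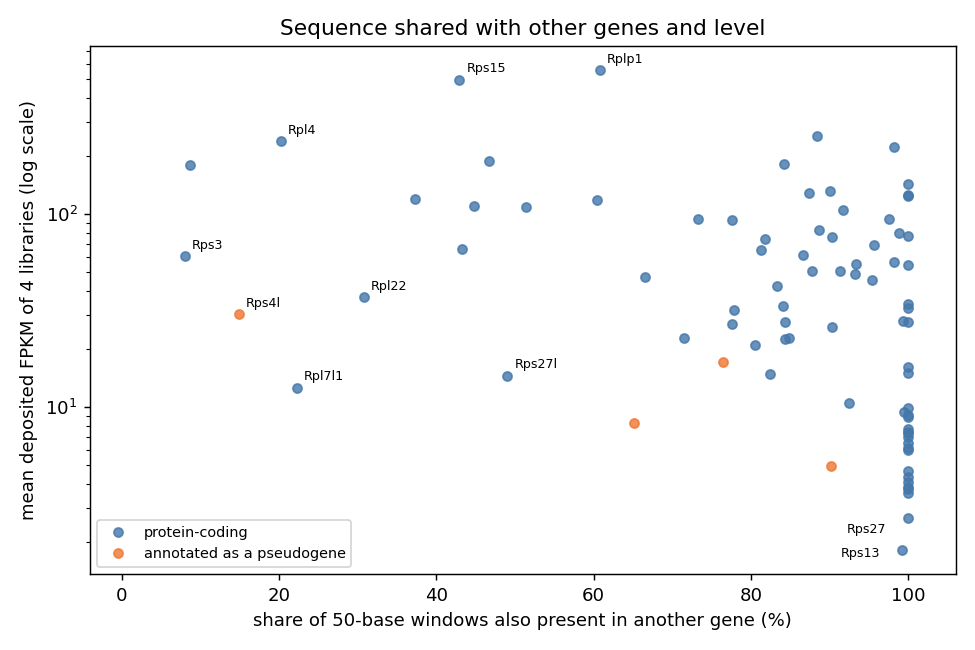
Mean deposited FPKM of the 4 libraries (vertical axis, log scale) against the percentage of a gene's 50-base windows that also occur in another gene (horizontal axis), for 83 genes, with protein-coding genes in blue and annotated pseudogenes in orange. Genes at 100% lie between 2.66 and 143 FPKM, and those under 50% between 12.6 and 499.

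Rps4l was the gene with the lowest fold change and the only one of the 84 that passed. It is a copy of Rps4x, whose protein sits on the outer face of the small subunit. Its counts were 467 and 519 in the control libraries, against 438 and 390 in the ATO libraries, from libraries that were larger in ATO. Normalised, this was 31.7 and 34.4 CPM in the controls and 25.1 and 23.5 CPM in ATO. Both ATO libraries were below both controls, with means of 33.0 ± 1.903 and 24.3 ± 1.18 CPM (SD, n = 2 each). The log2 fold change was -0.44 ± 0.11 (SE, edgeR adjusted p = 0.0359), a fall of 26.4%. The call was lost under DESeq2 (adjusted p = 0.108), under a length and GC correction (0.0698) and without control replicate 2 (0.170), ATO replicate 1 (0.0602) or ATO replicate 2 (0.150). The authors' deposited table gave it a log2 fold change of -0.44 with an adjusted p of 0.0415. That table marked 0 of the 84 genes as differential, against 153 of all genes. Rps4l was thus unmarked there, so the mark is not the same call as an adjusted p under 0.05.

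Rps4l lies at chr6:148354656-148355598 on the plus strand of GRCm38, inside an intron of Tmtc1, a gene of the minus strand. Tmtc1 had counts of 856 and 705 in the control libraries, against 1089 and 1031 in the ATO libraries (log2 fold change 0.25 ± 0.10 SE, adjusted p = 0.203), so its value has the other sign. The parent Rps4x, at chrX:102184941-102189394 on the minus strand, had 211 and 218 CPM in the controls and 224 and 211 CPM in ATO. Those groups overlapped, with a log2 fold change of 0.02 ± 0.07 (SE, adjusted p = 0.938). The difference between the fold changes of Rps4l and Rps4x was not tested.

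Over 783 aligned bases Rps4l and Rps4x were 79.9% identical with 0 gaps, and 14.9% of the Rps4l windows occurred in another gene. The Rps4l transcript opens a frame of 262 codons from an ATG to the stop, beside 263 in Rps4x, although the annotation calls it a transcribed processed pseudogene. The stretch of 60 aligned bases without gaps that held the most differences is printed from the GENCODE vM21 transcripts, 5′ to 3′. It spans positions 475 to 534 of the Rps4x coding sequence counted from the A of the ATG. Its 20 differing bases are in capitals.
Rps4x: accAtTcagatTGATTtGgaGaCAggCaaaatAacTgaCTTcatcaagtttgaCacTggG
Rps4l: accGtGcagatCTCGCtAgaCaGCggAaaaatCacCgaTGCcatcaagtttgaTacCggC

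Rpl22l1, the paralogue of Rpl22, had the fifth lowest fold change and the second smallest p of the 84. Its level was 57.0 and 64.7 CPM in the controls and 49.9 and 49.5 CPM in ATO, so both ATO libraries were below both controls. The log2 fold change was -0.29 ± 0.09 (SE, adjusted p = 0.0931). Rpl22, a large-subunit protein that also binds other RNAs, had 115 and 104 CPM in the controls and 111 and 103 CPM in ATO. There the groups overlapped, with a log2 fold change of -0.03 ± 0.08 (SE, adjusted p = 0.904). The difference between the pair was not tested.

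The coding sequences of Rpl22 and Rpl22l1 were 73.5% identical over 298 aligned columns. The 60 bases with the most differences, positions 175 to 234 of the Rpl22 coding sequence, are printed in the same way. Their 24 differing bases are in capitals.
Rpl22: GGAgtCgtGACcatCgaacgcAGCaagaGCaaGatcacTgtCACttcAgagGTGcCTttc
Rpl22l1: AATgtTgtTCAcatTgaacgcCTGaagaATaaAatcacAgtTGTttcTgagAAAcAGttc

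The other paralogues differed little between groups. Rps27l, a paralogue of Rps27 known as a p53 target, had 13.2 and 11.1 CPM in the controls and 12.6 and 10.8 CPM in ATO (log2 fold change -0.06 ± 0.16 SE, adjusted p = 0.890). Rpl7l1, a paralogue of Rpl7 of 61.0% identity over 282 aligned bases, had 43.3 and 44.5 CPM in the controls and 46.3 and 42.8 CPM in ATO (0.02 ± 0.09, adjusted p = 0.934). Rpl7 itself had 249 and 254 CPM in the controls and 250.2 and 251 CPM in ATO (-0.01 ± 0.07, adjusted p = 0.977). In these genes the libraries of the groups overlapped. Rpl3l, Rpl10l and Rpl39l, the paralogues expressed chiefly in muscle or germ cells, were not analysed here.

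The remaining annotated pseudogenes are near copies. Rps3a2 and Rps3a3 were 99.5% and 98.9% identical to Rps3a1, and Rpl6l was 98.7% identical to Rpl6. Rps3a3 had the second highest fold change of the group, from 7.66 and 4.97 CPM in the controls to 7.98 and 5.84 CPM in ATO. The groups overlapped and the log2 fold change of 0.13 ± 0.24 (SE, adjusted p = 0.826) was smaller than its error. Rpl6l had 16.5 and 15.8 CPM in the controls and 13.7 and 13.7 CPM in ATO, and Rpl6 had 153 and 150 CPM in the controls and 158 and 158 CPM in ATO. Rpl6l was lower in both ATO libraries and Rpl6 higher in both, at adjusted p of 0.396 and 0.713. Their reads can be exchanged where the copies are identical.

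Outside the name rule, 44 genes of the table carry a ribosomal protein name with the suffix -ps. Of these, 37 (84.1%, against 51% of all genes) had a log2 fold change below 0, with a median of -0.17. None passed in either direction (0 genes), and 4 were lower at an unadjusted p under 0.05 (9.09%, against 7.55% of all genes). They held 0.0905% and 0.0974% of the reads in the control libraries, against 0.0904% and 0.0840% in the ATO libraries.

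Among small-subunit proteins, Rps10, which carries ubiquitin marks when ribosomes collide, had 23.3 and 30.5 CPM in the controls and 23.9 and 19.4 CPM in ATO. The groups overlapped through control 1, with a log2 fold change of -0.31 ± 0.14 (SE, adjusted p = 0.264) that was -0.49 without control replicate 1 and -0.11 without control replicate 2. Rps14, lost on one allele in the human 5q- syndrome, had 260 and 311 CPM in the controls and 236 and 239 CPM in ATO. Both ATO libraries were below both controls, and control 2 was the highest of the 4 (log2 fold change -0.26 ± 0.09 SE, adjusted p = 0.114). Rps21 had 95.7 and 99.3 CPM in the controls and 81.6 and 84.1 CPM in ATO, again without overlap (-0.23 ± 0.08, adjusted p = 0.117). Rps14 and Rps21 are named after their values were seen.

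Small-subunit genes with roles beyond the core ribosome showed small differences. Rps6, the target of S6 kinase downstream of mTOR, had 12.2 and 13.6 CPM in the controls and 11.7 and 11.5 CPM in ATO (log2 fold change -0.16 ± 0.15 SE, adjusted p = 0.635). Rps3, which lies at the messenger RNA entry and is also known in DNA repair, had 258 and 318 CPM in the controls and 254 and 261 CPM in ATO (-0.16 ± 0.09, adjusted p = 0.383). Rpsa, also known as the laminin receptor, had 256 and 265 CPM in the controls and 242 and 249.8 CPM in ATO (-0.09 ± 0.07, adjusted p = 0.582). For Rps6 and Rpsa both ATO libraries were below both controls, and for Rps3 control 1 lay between the ATO libraries. Without control replicate 2 the log2 fold changes of Rps3 and Rps6 were -0.0048 and -0.0805.

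At the other end of the small subunit stood Rps15a, with 136 and 134 CPM in the controls and 148 and 147 CPM in ATO. Both ATO libraries were above both controls, with a log2 fold change of 0.12 ± 0.07 (SE, adjusted p = 0.397), and the SD within each group was under 2 CPM. Rps16 had 12.2 and 9.93 CPM in the controls and 13.8 and 10.3 CPM in ATO. Its libraries overlapped (0.12 ± 0.18, adjusted p = 0.778), and 100% of its windows are shared.

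**Figure D4:**
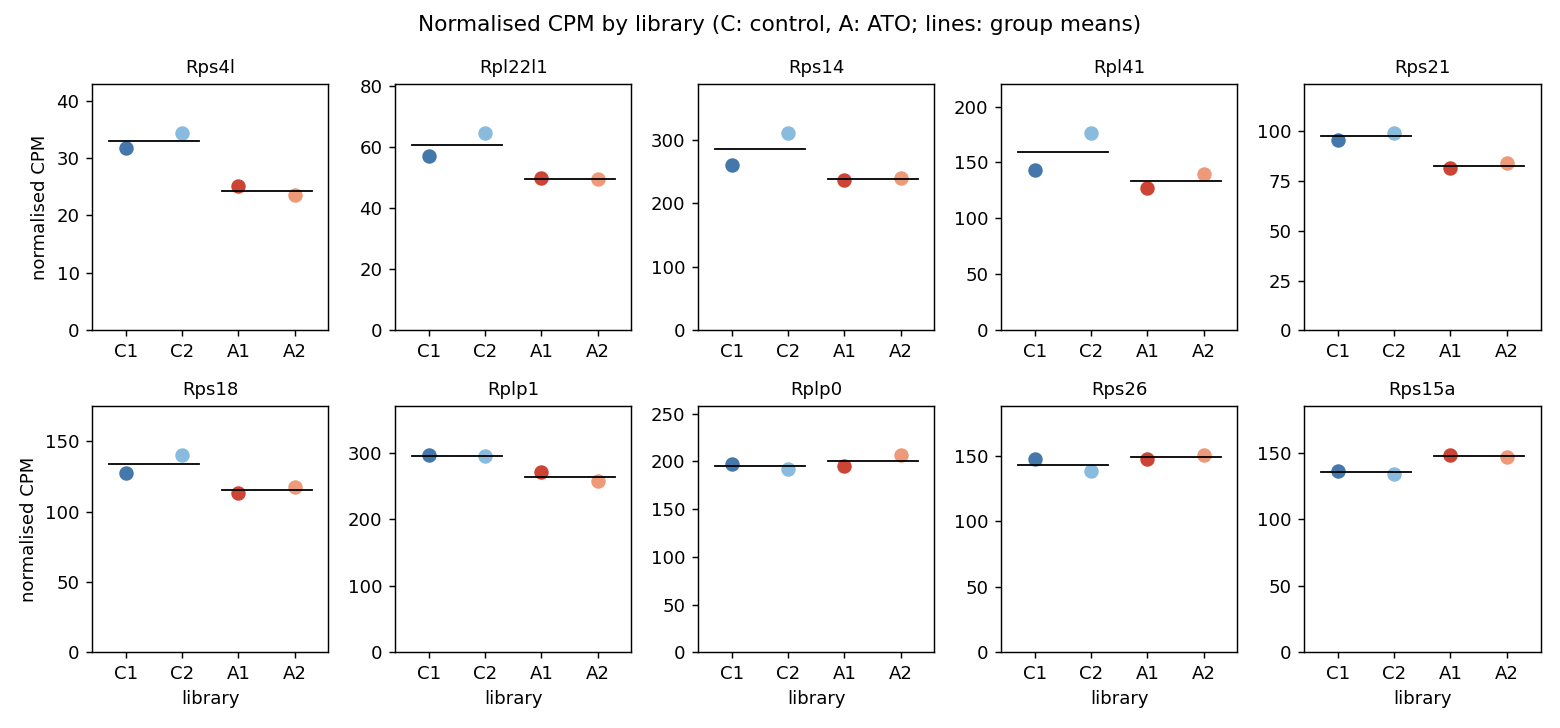
Normalised CPM (vertical axis, from 0) of 10 ribosomal protein genes in the 2 control (C1, C2) and 2 ATO (A1, A2) libraries, with lines at the group means. Rps4l falls from 33.0 to 24.3 CPM, while in Rps15a both ATO libraries lie above both controls.

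Among large-subunit proteins, Rpl13 had the second lowest fold change, from 22.7 and 18.5 CPM in the controls to 14.9 and 16.6 CPM in ATO. Both ATO libraries were below both controls, with a log2 fold change of -0.39 ± 0.14 (SE, adjusted p = 0.149) that was -0.23 without control replicate 1 and -0.53 without control replicate 2. Rpl17, which lies at the mouth of the exit tunnel, had 10.2 and 11.5 CPM in the controls and 7.98 and 9.57 CPM in ATO, without overlap (-0.30 ± 0.17, adjusted p = 0.388, and -0.18 without ATO replicate 1). Rpl41, a very short basic peptide at the subunit interface, had 143 and 176 CPM in the controls and 127 and 140 CPM in ATO, without overlap (-0.26 ± 0.10, adjusted p = 0.160). Rpl41 is named after its values were seen. When 1 library was left out, the median over the large-subunit genes ran from -0.0994 (without ATO replicate 1) to -0.0665 (without control replicate 2 or ATO replicate 2).

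The highest fold change of the 84 belonged to Rpl10, which joins the large subunit in the last steps of its assembly. It had 13.6 and 10.4 CPM in the controls and 13.8 and 12.6 CPM in ATO, with overlap (log2 fold change 0.15 ± 0.16 SE, adjusted p = 0.700). Rpl36a had 12.8 and 15.7 CPM in the controls and 16.3 and 14.5 CPM in ATO, also with overlap (0.12 ± 0.15, adjusted p = 0.744). In Rpl10, Rpl36a, Rps16 and Rps3a3 the sign of the fold change turned when 1 library was left out, so these values show no direction.

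The stalk proteins had unlike values. Rplp0, the base of the stalk, had 198 and 193 CPM in the controls and 195 and 207 CPM in ATO (log2 fold change 0.04 ± 0.07 SE, adjusted p = 0.815). Rplp2, which pairs with Rplp1 on the stalk, had 102 and 109 CPM in the controls and 94.2 and 88.6 CPM in ATO (-0.20 ± 0.08, adjusted p = 0.190). Rplp1 had 297 and 295 CPM in the controls and 271 and 257 CPM in ATO. The libraries of the groups overlapped for Rplp0 and not for Rplp1 or Rplp2, and the differences between these genes were not tested.

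Rpl5 and Rpl11, which with the 5S ribosomal RNA bind MDM2 and so link ribosome assembly to p53, did not pass. Rpl5 had 18.0 and 16.0 CPM in the controls and 14.7 and 16.0 CPM in ATO (log2 fold change -0.15 ± 0.14 SE, adjusted p = 0.616). Rpl11 had 86.8 and 93.9 CPM in the controls and 88.2 and 86.0 CPM in ATO (-0.05 ± 0.08, adjusted p = 0.787). For Rpl5 the higher ATO library lay just under the lower control, and for Rpl11 the groups overlapped. Without control replicate 1 the log2 fold change of Rpl5 was -0.0598.

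Rpl13a, known as a translational silencer after interferon, had 192 and 216 CPM in the controls and 203 and 190 CPM in ATO (log2 fold change -0.05 ± 0.08 SE, adjusted p = 0.789). Rpl38, known for its part in the translation of homeobox messenger RNAs, had 27.9 and 30.5 CPM in the controls and 28.5 and 31.2 CPM in ATO (0.03 ± 0.11, adjusted p = 0.911). The libraries overlapped in both. Over the 84 genes, SE ranged from 0.07 to 0.29, and for the 49 genes with a mean of at least 1000 counts it was at most 0.10.

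Some ribosomal proteins and their copies have names outside the rule. Rps27a, a member, and Fau, which is not, are made as fusions to ubiquitin or a ubiquitin-like protein. Rps27a had 7.46 and 8.48 CPM in the controls and 7.29 and 7.46 CPM in ATO (log2 fold change -0.11 ± 0.19 SE, adjusted p = 0.807). Fau had 12.96 and 13.4 CPM in the controls and 9.82 and 12.1 CPM in ATO (-0.27 ± 0.16, adjusted p = 0.409). Rack1, a scaffold on the small subunit, had a log2 fold change of -0.07 ± 0.07 (adjusted p = 0.664). Rpl36al had -0.07 ± 0.10 (adjusted p = 0.774) and Rps27rt -0.30 ± 0.18 (adjusted p = 0.413). Rpl37rt had 0.06 ± 0.10 (adjusted p = 0.786). None of these genes passed, and of the values only that of Rpl37rt lay above 0. Without control replicate 2, Rps27a had -0.0202.

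The letters around the start site were read because the TOP motif lies there. RefSeq promoters of GRCm38.p6 matched 60 of the 84 genes, with 71 start sites. In the window from 20 bases before to 10 bases after the start, 29 of the 71 (40.8%) held a run of at least 8 C or T letters on the gene strand, against 12.6% of all 32851 RefSeq promoters. CTTTC on the gene strand was in 19.7% of these windows, against 4.20% of all. In the whole promoter, from 250 bases before to 50 after the start, CCGGAAG on either strand was in 36.6% against 8.86%, GGGCGG in 62.0% against 35.7% and AAGATGGC in 11.3% against 2.75%. TATAAA, 50 to 11 bases before the start on the gene strand, was in 1.41% against 2.40%. Several start sites of one gene overlap, so these shares are not of independent sequences.

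The windows of genes from both ends of the fold changes are printed for comparison, 5′ to 3′ on the gene strand, with the longest run of C and T in capitals. Rpl13 (chr8:123102330-123102359, plus), Rps10 (chr17:27635235-27635264, minus) and Rpl22l1 (chr3:28805488-28805517, plus) are from the low end. Rps15a (chr7:118116138-118116167, minus), Rps16 (chr7:28350669-28350698, plus) and Rpl10 (chrX:74270796-74270825, plus) are from the high end. Rpl4 (chr9:64173367-64173396, plus) and Rplp2 (chr7:141447631-141447660, plus) are given for their level and role.
Rpl13: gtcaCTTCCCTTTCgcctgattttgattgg
Rps10: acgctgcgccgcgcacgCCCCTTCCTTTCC
Rpl22l1: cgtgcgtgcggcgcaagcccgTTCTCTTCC
Rps15a: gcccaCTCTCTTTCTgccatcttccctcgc
Rps16: taaagcccgCTTCTgtcgtgacgtagcact
Rpl10: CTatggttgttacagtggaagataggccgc
Rpl4: agTCTTTCCTTTTCCTgtgggagcagccgg
Rplp2: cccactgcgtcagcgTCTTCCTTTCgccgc

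The longest runs were 10 letters in Rpl13, 13 in Rps10, 9 in Rpl22l1, 10 in Rps15a, 5 in Rps16 and 2 in Rpl10. For this split only the first-listed start site of each gene was read. The 26 genes with a run of at least 8 there had a median log2 fold change of -0.11, with 22 below 0. The 34 matched genes without one at that site had a median of -0.06, with 22 below 0. Over all genes, 51% lay below 0. These are descriptions of letters in 1 window, and the difference between the 2 sets was not tested.

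Other parts of the translation machinery were described from lists of known genes, to set the ribosomal proteins beside them. Over all genes, 2.87% passed as higher and 0.859% as lower. Of 39 translation initiation factors 0 passed in either direction, with a median log2 fold change of -0.03, which was -0.0639 without control replicate 1 and 0.0258 without control replicate 2. Of 22 elongation factors and other TOP messenger RNAs 0 passed, with a median of -0.05 (-0.0119 without ATO replicate 1 and -0.0302 without control replicate 2). Eef1a1, the elongation factor that brings transfer RNAs, had 2482 and 2390 CPM in the controls and 2467 and 2441 CPM in ATO (0.01 ± 0.08 SE, adjusted p = 0.961). Of 77 ribosome biogenesis genes, 1 passed as higher and 0 as lower. That gene, Imp4, a part of the nucleolar complex that processes the small-subunit RNA, rose from 24.1 and 26.8 CPM to 35.1 and 37.3 CPM (0.51 ± 0.11 SE, adjusted p = 0.0162). At an unadjusted p under 0.05 (edgeR), 8 of the 77 were lower and 2 higher, against 7.55% and 10.6% of all genes. The list's median of -0.03 was -0.11 without control replicate 1, -0.0608 without ATO replicate 2 and 0.0323 without control replicate 2. The Imp4 call was lost without control replicate 1 and without ATO replicate 2. Of 18 RNA polymerase I genes and factors 0 passed (median 0.06), and of 22 genes of ribosome quality control and rescue 0 passed (median 0.05). Leaving out 1 library moved these medians over 0.0098 to 0.11 and 0.0116 to 0.0582, each lowest without control replicate 1.

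Among regulators, 5 of 40 mTOR pathway genes rose and 0 fell, where 2.87% of all genes rose and 0.859% fell. Their median log2 fold change of 0.02 was -0.0399 without ATO replicate 2, 0.0298 without control replicate 2 and 0.0344 without ATO replicate 1. Eif4ebp2, the neuronal repressor of the cap-binding factor, rose from 73.3 and 66.0 CPM to 102 and 95.5 CPM (0.50 ± 0.08 SE, adjusted p = 0.00357). Ddit4, an inhibitor of mTOR, rose from 52.4 and 64.1 to 82.8 and 82.2 CPM (0.50 ± 0.10, adjusted p = 0.00928). The stress-induced inhibitors Sesn1 and Sesn3 rose by log2 fold changes of 0.48 and 0.36 (adjusted p = 0.00805 and 0.0182). The fifth, Larp4, a binder of messenger RNA tails, stood at 0.33 with an adjusted p of 0.0496. Sesn3 lost its call without control replicate 2 or ATO replicate 1, and Larp4 lost it without any 1 library and under DESeq2, limma-voom, library-size scaling or a minimum of 10 CPM. Mtor itself (-0.09 ± 0.08, adjusted p = 0.595) and Larp1, the binder of TOP messenger RNAs (0.07 ± 0.08, adjusted p = 0.699), did not pass.

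Of 13 p53 and nucleolar stress genes, 2 rose and 0 fell, where 2.87% of all genes rose and 0.859% fell. Their median was 0.08 (0.0472 without control replicate 2). Cdkn1a, the p53-induced inhibitor of the cell cycle, rose from 6.65 and 8.21 CPM to 17.9 and 24.9 CPM (log2 fold change 1.52 ± 0.18 SE, adjusted p = 0.000174). Trp53inp1, another p53 target, rose by 0.88 ± 0.15 (adjusted p = 0.0040), a call lost without control replicate 2 (0.0630). Rps27l, the ribosomal member of that list, did not pass (values above). Of 14 transcription factors known at ribosomal protein promoters, 13 had a log2 fold change above 0, against 7701 of all 15713 genes. Their median was 0.13, and 1, Gabpa, passed. Gabpa, whose complex binds GGAA sites such as the CCGGAAG above, had 31.0 and 30.6 CPM in the controls and 41.0 and 39.3 CPM in ATO (0.38 ± 0.10, adjusted p = 0.0434), a call lost under DESeq2 and without any 1 library.

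Lists of other multi-protein machines also lay below 0 more often than above it, where 51% of all genes lay below 0 and 0.859% passed as lower. Of 74 nuclear genes for respiratory chain subunits, 64 had a log2 fold change below 0, with a median of -0.092 and 0 that passed; leaving out 1 library gave -0.13 to -0.0639, and 1 gene passed as lower without control replicate 1. Of 75 mitochondrial ribosomal proteins, 53 were below 0, with a median of -0.051 and 0 that passed; leaving out 1 library gave -0.0703 to -0.0234 (lowest without ATO replicate 2, highest without ATO replicate 1). Relative to the control mean, the respiratory chain list had library medians of -0.048, 0.048, -0.093 and -0.086 in control 1, control 2, ATO 1 and ATO 2. Both ATO libraries were below both controls in this list and in the ribosomal proteins, and also in the mitochondrial ribosomal proteins (-0.020, 0.020, -0.066 and -0.022). After the length and GC correction, the median of the 84 genes was -0.057, 56 were below 0 and 0 passed, and the medians of these lists were -0.0712 (respiratory chain) and -0.0287 (mitochondrial ribosome).

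**Figure D5:**
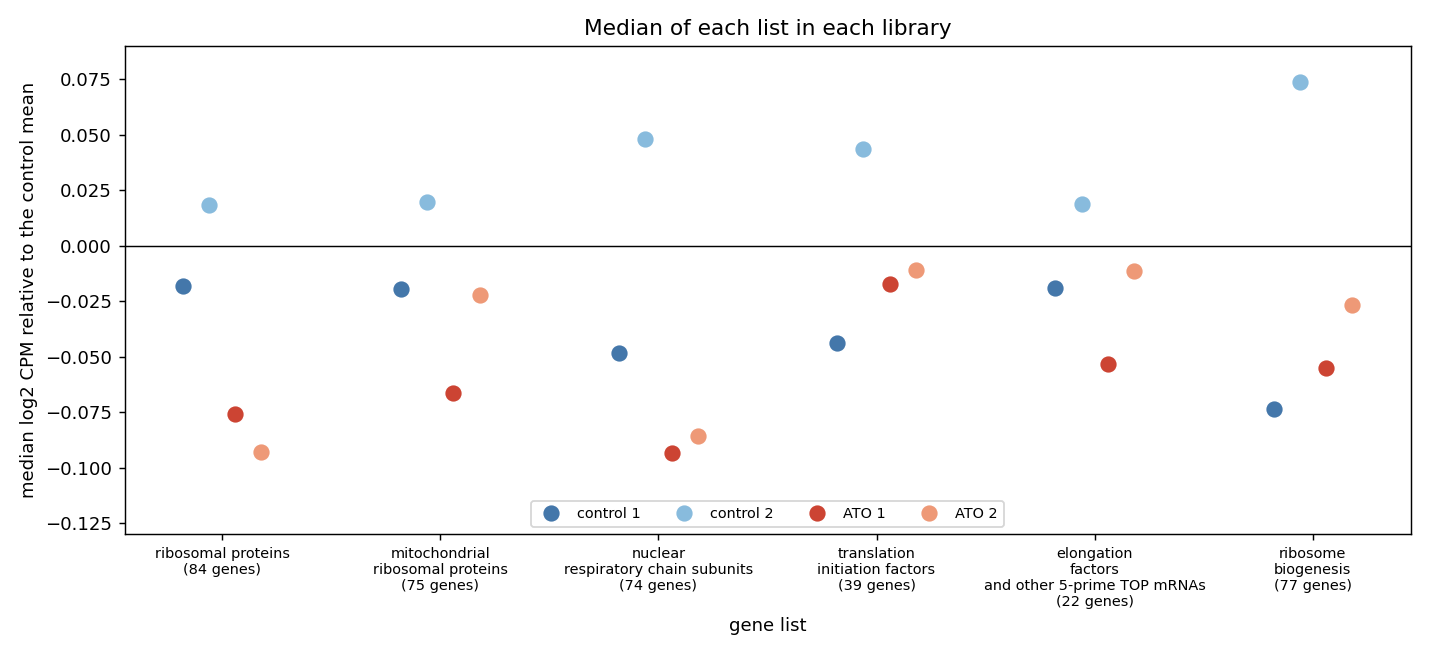
Median log2 CPM relative to the control mean (vertical axis) of 6 gene lists in each of the 4 libraries. In the ribosomal proteins the ATO libraries lie at -0.076 and -0.093, and in the initiation factors they lie between the controls.

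The non-member protein genes whose log2 CPM over the 4 libraries lay closest to the median profile of the 84 genes were Camk2b, Rab6a, Peli3, Celf3 and G3bp2. Likeness was the Euclidean distance of values centred per gene, over 4 libraries, and ran from 0.0099 to 0.016. With 4 libraries many genes can come this close, and the names are given as a description.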

How the data were processed

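The authors deposited 1 table for 4 libraries. Per the file headers it holds raw read counts per gene, FPKM values, and the authors' log2 fold changes with their p-values and adjusted p-values. Per the submitters' processing notes, the tools were HTSeq 0.6.1, limma 3.47.15, HISAT2 2.0.1, R 4.1.0, cutadapt 1.9.1 and FastQC 0.10.1, with the build GRCm38. Not given in the sources used here are their roles and settings, the use of strand and the treatment of reads that match several genes. Per the labels' protocols, libraries were made from messenger RNA with a TruSeq kit.

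The deposited counts went into edgeR 4.0.16 (R 4.3.3): filterByExpr removed 0 genes, TMM factors were 0.994 to 1.01, and the quasi-likelihood test compared the groups without covariates, with Benjamini-Hochberg adjustment over 15713 genes. A gene passed, rose or fell where its adjusted p was under 0.05. CPM are counts scaled by the TMM-adjusted library size. SE are those of the log2 fold change. What edgeR terms the biological coefficient of variation was 7.16%, though the spread may be technical here. The fit was tested on simulated data.

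Gene identifiers were matched to GENCODE vM21 (15703 found). Coding sequences of its principal transcripts gave the 50-base windows. Promoters are from RefSeq.

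The members and the gene lists were chosen with earlier results of these data known. Values in every library are given for members that passed, the 5 highest and 5 lowest fold changes, the 5 highest and 3 lowest FPKM, tested paralogues with their partners, and members with known roles, together 33 genes. Alternatives were library-size scaling, TMM without the members, DESeq2 1.42.0, limma-voom (limma 3.58.1), other filters, a replicate block, a length and GC correction, and leaving out each library. Single values of some genes are not reported here; counts and medians over all 84 members include them.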

Additional observations from a re-analysis of the deposited data

How the results depend on the processing

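The median log2 fold change of the 84 genes was below 0 in the fit described above and in each of its alternatives, from -0.057 with the length and GC correction to -0.099 without ATO replicate 1, where the median over all genes lay between -0.0086 and 0.0028. Leaving out 1 library gave -0.099 to -0.067, and -0.099 to -0.067 for the large subunit. With the length and GC correction the small subunit had -0.037. The number of members that passed as lower was 1, and it was 0 under DESeq2, 0 with the length and GC correction, 0 to 3 when 1 library was left out, and, in alternatives chosen after seeing the data, 0 among protein-coding members and 0 among members with at least 1000 counts. None passed as higher in any of these settings (0 members). Over all genes, 451 higher and 135 lower became 252 and 64 under DESeq2, 180 to 443 and 42 to 168 when 1 library was left out, and 296 higher with a minimum of 10 CPM.

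The labels share replicate numbers but do not pair the libraries. Deviations of same-numbered libraries correlated at 0.088 over all genes and at 0.26 over the members. With the replicate block, 890 genes passed as higher and 476 as lower, and 7 members passed as lower (Rpl22l1, Rpl41, Rps14, Rps18, Rps19, Rps21 and Rps4l).

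Some values near 0 changed sign. Rps15 was 0.014 with the length and GC correction and Rpl7 was 0.0006 with library-size scaling. When 1 library was left out, log2 fold changes ran from -0.0234 to 0.27 for Rpl36a, -0.10 to 0.32 for Rps16, -0.15 to 0.48 for Rps3a3, -0.0383 to 0.35 for Rpl10, -0.0162 to 0.10 for Rps13, -0.0373 to 0.0768 for Rpl7l1, -0.0178 to 0.0047 for Rpl7, -0.10 to 0.0486 for Rpl22, -0.0280 to 0.0581 for Rps4x, -0.18 to 0.0730 for Rps27l, -0.11 to 0.0021 for Rpl11, -0.13 to 0.0320 for Rpl13a and -0.0322 to 0.0961 for Rpl38. The cause was not tested. With 2 libraries a group, members with few counts have SE up to 0.29, which hides differences of the size of the group's median.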
